A study of Mus musculus with 9 samples.

Results

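The serine synthesis and folate one-carbon enzymes described here are the products of 8 genes, Phgdh, Psat1, Psph, Shmt1, Shmt2, Mthfd2, Mthfd1l and Aldh1l2, chosen by symbol among 19937 genes measured on 9 arrays. Each of the 8 was represented by 1 probe set, so none had to be chosen among several. The cells were MC3T3-E1, a mouse calvarial preosteoblast line (subclone 4), infected with lentivirus carrying a scrambled hairpin (Scr) or a single hairpin against Runx2 (shRunx2) together with green fluorescent protein, for which all cultures were sorted. Total RNA went onto 1 Affymetrix array (Mouse Gene 1.0 ST) for each culture, with 3 biological replicates in each of 3 groups. The first was Scr cells at day 0, near confluency and before osteogenic culture, the stage the authors call proliferation. The others were Scr and shRunx2 cells at day 9 of osteogenic culture with ascorbic acid and beta-glycerophosphate. All 3 groups carried virus. A group of shRunx2 cells at day 0 was not analysed here, so whether Scr and shRunx2 cells differed before differentiation was not tested. Runx2 itself is not analysed here.

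Serine is made from the glycolytic intermediate 3-phosphoglycerate in a chain of reactions catalyzed in turn by PHGDH (phosphoglycerate dehydrogenase), PSAT1 (phosphoserine aminotransferase) and PSPH (phosphoserine phosphatase). Serine hydroxymethyltransferase, SHMT1 in the cytosol and SHMT2 in mitochondria, then moves a carbon from serine to tetrahydrofolate and leaves glycine, the most abundant residue of collagen. In mitochondria, MTHFD2 oxidizes the folate-bound carbon, MTHFD1L releases it as formate for export to the cytosol, and ALDH1L2 oxidizes 10-formyltetrahydrofolate to carbon dioxide with the formation of NADPH. The exported carbon is used for purines, thymidylate and methionine. Several genes of both pathways are known in mammalian cells as targets of ATF4, the transcription factor of the amino acid response, which also takes part in osteoblast function.

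Promoter windows from RefSeq (GRCm38.p6, 250 bases before to 50 after the annotated start) were found by symbol for 7 of the 8 genes, 8 windows in all because Psat1 has 2. Those of 3 genes are shown, because the genes responded in different ways: Phgdh passed the test in neither comparison below, Psat1 fell during differentiation only, and Mthfd2 fell in both. Each is written 5′ to 3′ on the gene's strand, with CCAAT boxes on either strand (CCAAT or ATTGG) in capitals.
Phgdh, chr3:98339920-98340219, minus strand: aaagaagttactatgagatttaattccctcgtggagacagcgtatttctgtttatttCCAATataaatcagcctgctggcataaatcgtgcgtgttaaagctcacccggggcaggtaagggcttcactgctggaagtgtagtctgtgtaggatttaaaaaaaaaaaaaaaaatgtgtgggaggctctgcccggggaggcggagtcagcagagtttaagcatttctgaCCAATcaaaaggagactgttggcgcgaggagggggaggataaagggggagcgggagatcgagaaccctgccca
Psat1, chr19:15925010-15925309, minus strand: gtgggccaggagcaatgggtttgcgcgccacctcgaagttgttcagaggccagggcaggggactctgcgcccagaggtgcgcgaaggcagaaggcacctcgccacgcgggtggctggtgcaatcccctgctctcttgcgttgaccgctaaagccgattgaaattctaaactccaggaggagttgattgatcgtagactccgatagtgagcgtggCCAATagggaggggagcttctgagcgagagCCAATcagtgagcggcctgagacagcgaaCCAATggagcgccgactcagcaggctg
Mthfd2, chr6:83317555-83317854, minus strand: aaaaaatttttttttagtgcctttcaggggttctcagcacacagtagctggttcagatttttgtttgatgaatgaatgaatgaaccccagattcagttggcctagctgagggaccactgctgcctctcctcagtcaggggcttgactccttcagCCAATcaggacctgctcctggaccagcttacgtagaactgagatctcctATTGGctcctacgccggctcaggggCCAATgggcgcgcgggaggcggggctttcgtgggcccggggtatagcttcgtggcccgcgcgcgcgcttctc

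The letters searched for were TGATGNAA, the core of the element bound by ATF4 with C/EBP proteins, the E-box CACGTG, the Runx core TGTGGT and CCAAT, all on both strands. CCAAT was added after the windows had been read. CCAAT was found in 5 of the 8 windows, those of Phgdh, Psph, Shmt1 and Mthfd2 and the upstream one of Psat1, against 37.4% of 32851 windows of the same length. The Runx core was found in 1 window, that of Shmt2 (16.8% of all windows), and neither TGATGNAA (3.97% of all windows) nor CACGTG (7.15%) was found in any of the 8. A match is a string of letters, and its absence says only that these letters are not in this window.

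To determine how the pathway changed as the cells differentiated, Scr day 9 was compared with Scr day 0. At day 9, 6 of the 8 genes were lower and none was higher (limma, Benjamini-Hochberg adjusted p under 0.05 over all 19937 genes), and each of the 6 had fallen by more than 1.5-fold. Among all genes, 31.6% passed the test in either direction, 17.1% as lower and 14.5% as higher, and 2.25% were lower by at least 1.5-fold. The median change of the 8 genes was -0.74 on the log2 scale, and that of all genes was -0.016. The genes had been chosen with earlier results of these data known, so the counts are a description. RNA was taken from whole cultures, in which fewer cells of a type and less RNA per cell cannot be told apart.

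Within serine synthesis the enzymes parted. Phgdh (probe set 10500529), whose product catalyzes the committed step, read 11.02, 11.11 and 11.15 log2 units in Scr day 0, 11.09, 11.13 and 11.05 in Scr day 9 and 11.04, 11.0 and 11.07 in shRunx2 day 9. The 3 groups overlapped. Its change during differentiation was -0.0025 ± 0.043 (SE; 95% interval -0.1 to 0.093; adjusted p = 0.978), an interval that leaves out changes of the size seen in the next enzymes of the chain.

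Psat1 (probe set 10466410) read 12.83, 12.9 and 12.84 in Scr day 0, 11.93, 11.91 and 11.86 in Scr day 9 and 11.88, 11.92 and 11.87 in shRunx2 day 9. Both sets of day 9 arrays lay below every day 0 array and overlapped each other. Psat1 fell 1.94-fold in Scr cells (log2 change -0.96 ± 0.037 SE, adjusted p = 4.18e-09). Psph (probe set 10534075), which encodes the last enzyme of the chain, read 9.8, 9.91 and 9.94, then 9.19, 9.29 and 9.21, and 9.35, 9.33 and 9.26 in the same order of groups. It too was lower on every day 9 array than on any day 0 array, by 1.57-fold in Scr cells (-0.65 ± 0.047, adjusted p = 8.29e-07).

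**Figure D1:**
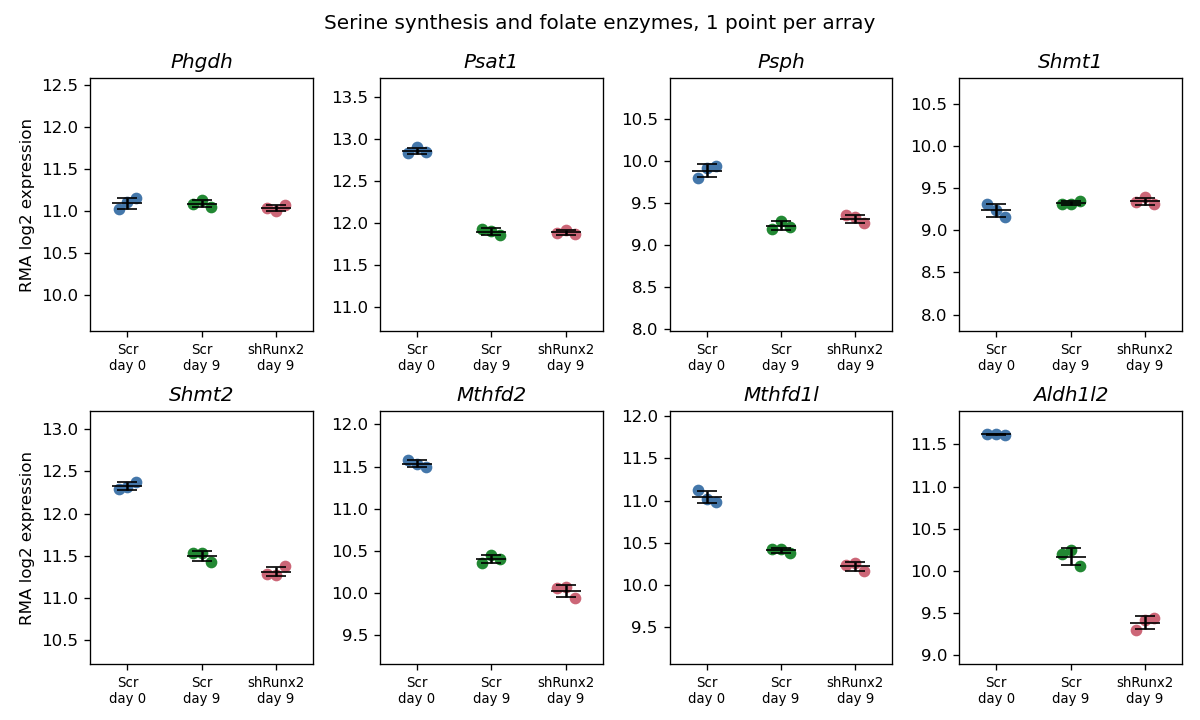
RMA log2 expression (vertical axis, the same span of 3 log2 units in every panel) of the 8 genes in the 3 groups (horizontal axis). Points are arrays, and black bars are the group mean and SD over 3 arrays. Phgdh and Shmt1 lie level across the groups, Psat1 and Psph drop once from day 0 to day 9, and Shmt2, Mthfd2, Mthfd1l and Aldh1l2 lie lowest in shRunx2 day 9.

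Of the enzymes that split serine, the cytosolic one did not follow the mitochondrial one. Shmt2 (probe set 10373202), the mitochondrial form, read 12.29, 12.31 and 12.38 in Scr day 0, 11.53, 11.53 and 11.43 in Scr day 9 and 11.29, 11.27 and 11.38 in shRunx2 day 9. The 3 groups did not overlap, and Shmt2 fell 1.78-fold during differentiation (-0.83 ± 0.046, adjusted p = 7.85e-08). Shmt1 (probe set 10386604) read 9.31, 9.24 and 9.16, then 9.31, 9.31 and 9.35, and 9.33, 9.39 and 9.31, with overlap between all pairs of groups. Its change in Scr cells was 0.086 ± 0.044 (95% interval -0.011 to 0.18; adjusted p = 0.183).

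The mitochondrial enzymes among the 8 that handle the folate-bound carbon fell together. Aldh1l2 (probe set 10371332) had the largest change of the 8, from 11.63, 11.62 and 11.61 in Scr day 0 to 10.2, 10.25 and 10.06 in Scr day 9, and to 9.3, 9.42 and 9.44 in shRunx2 day 9. Its groups lay far apart, and it fell 2.74-fold during differentiation (-1.45 ± 0.054, adjusted p = 3.36e-09). Mthfd2 (probe set 10545672) went from 11.58, 11.53 and 11.49 to 10.36, 10.45 and 10.4, and to 10.06, 10.07 and 9.94, again with no overlap between groups. Its fall in Scr cells was 2.19-fold (-1.13 ± 0.046, adjusted p = 6.61e-09). Mthfd1l (probe set 10367641) read 11.12, 11.02 and 10.98, then 10.42, 10.43 and 10.38, and 10.24, 10.26 and 10.16. Its groups were also apart, with a 1.55-fold fall in Scr cells (-0.63 ± 0.046, adjusted p = 8.78e-07).

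To determine how shRunx2 cells differed from Scr cells at day 9, shRunx2 day 9 was compared with Scr day 9. In this comparison 4 of the 8 genes were lower and none was higher, against 7.39% of all genes in either direction, 4.66% lower and 2.73% higher. They were the mitochondrial folate enzymes among the 8, Shmt2, Mthfd2, Mthfd1l and Aldh1l2. Of the remaining genes, those of serine synthesis and Shmt1, none passed. The count of 4 was 2 when Scr day 9 replicate 1, Scr day 9 replicate 2 or shRunx2 day 9 replicate 1 was left out, with Shmt2 and Mthfd1l the genes lost.

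Aldh1l2 fell 1.72-fold in shRunx2 cells (-0.78 ± 0.054; 95% interval -0.9 to -0.66; adjusted p = 6.92e-06), and was the 1 gene of the 8 past 1.5-fold in this comparison, where 0.196% of all genes were lower by that much. Mthfd2 fell 1.3-fold (-0.37 ± 0.046; interval -0.48 to -0.27; adjusted p = 0.000429). Both had adjusted p under 0.05 in all 17 alternative settings. For Mthfd1l the fall was 1.14-fold (-0.19 ± 0.046; interval -0.29 to -0.091; adjusted p = 0.0278), a call kept in 12 of 17 settings (adjusted p between 0.00462 and 0.112) and lost with every probe set as a test and without Scr day 9 replicate 1 or 2 or shRunx2 day 9 replicate 1 or 3. For Shmt2 it was also 1.14-fold (-0.18 ± 0.046; interval -0.28 to -0.084; adjusted p = 0.0331), a call kept in 9 of 17 settings (adjusted p between 0.00834 and 0.137) and lost under a replicate block, with only the day 9 arrays, with every probe set as a test, and without Scr day 0 replicate 2, Scr day 9 replicate 1 or 2, or shRunx2 day 9 replicate 1 or 2. The falls of Shmt2 and Mthfd1l were thus small and close to the threshold.

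The genes of serine synthesis showed changes between -0.055 and 0.079 in the same comparison. For Psat1 the difference between shRunx2 and Scr cells was -0.0053 ± 0.037 (95% interval -0.086 to 0.075; adjusted p = 0.96). For Phgdh it was -0.055 ± 0.043 (interval -0.15 to 0.04; adjusted p = 0.558) and for Psph 0.079 ± 0.047 (interval -0.026 to 0.18; adjusted p = 0.421). Shmt1 stood at 0.018 ± 0.044 (interval -0.079 to 0.12; adjusted p = 0.876).

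**Figure D2:**
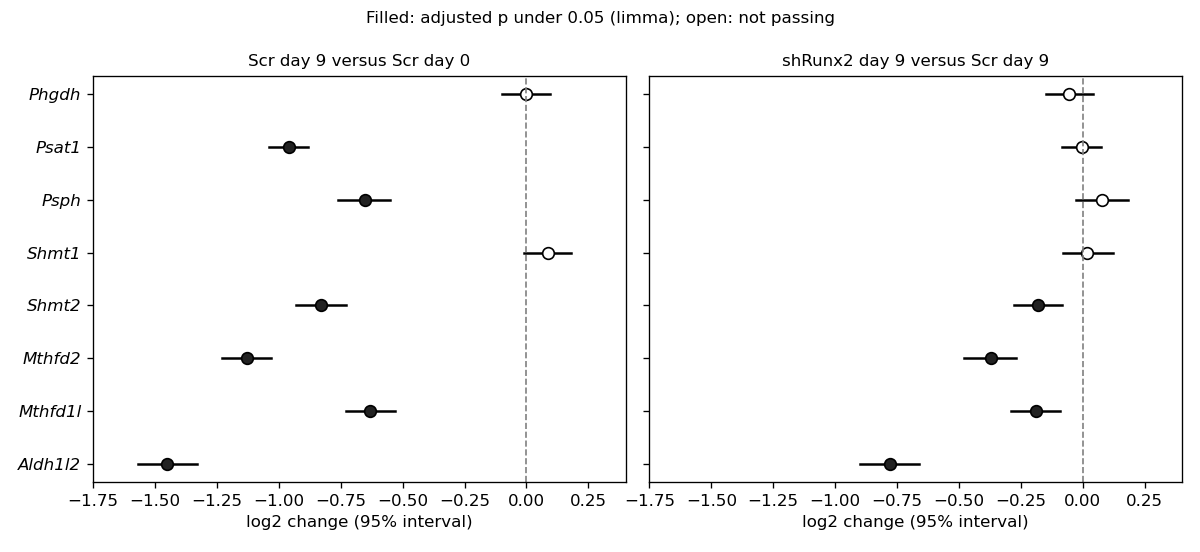
Log2 change (horizontal axis) with its 95% interval for the 8 genes (vertical axis), in Scr day 9 versus Scr day 0 (left) and shRunx2 day 9 versus Scr day 9 (right), which share the Scr day 9 arrays. Filled points have an adjusted p under 0.05 and open points do not: 6 genes are filled on the left, down to -1.45 for Aldh1l2, and 4 on the right, down to -0.78 for the same gene.

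The change from Scr day 0 to shRunx2 day 9 shares arrays with both comparisons above. It joins time in culture with the hairpin. No shRunx2 cells at day 0 were analysed, so these cannot be told apart within it. Here 6 of the 8 genes were lower, where 34.2% of all genes passed in either direction, 20.4% as lower and 13.8% as higher. Aldh1l2 was lower by 4.7-fold (-2.23 ± 0.054, adjusted p = 9.53e-11), Mthfd2 by 2.84-fold (adjusted p = 5.48e-10), Shmt2 by 2.02-fold (adjusted p = 1.31e-08) and Mthfd1l by 1.77-fold (adjusted p = 8.43e-08). Psat1 was lower by 1.95-fold (adjusted p = 3.24e-09) and Psph by 1.49-fold (adjusted p = 2.17e-06), close to their falls in Scr cells.

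Paralogs of the mitochondrial enzymes among the 8 did not all take the same course. Aldh1l1, the cytosolic 10-formyltetrahydrofolate dehydrogenase, rose where Aldh1l2 fell: it read 7.94, 8.07 and 7.9 in Scr day 0, 8.59 on each of the 3 Scr day 9 arrays, and 8.98, 8.96 and 8.96 in shRunx2 day 9. No pair of groups overlapped. Aldh1l1 rose 1.54-fold during differentiation (0.62 ± 0.044, adjusted p = 6.37e-07) and at day 9 was 1.29-fold higher in shRunx2 than in Scr cells (0.37 ± 0.044, adjusted p = 0.000323). Aldh1l1 is a dim gene here: its readings in both Scr groups lay below the gene medians of those arrays (8.788 to 8.838). Why the Scr day 9 readings are alike was not tested. Mthfd2l, a related mitochondrial dehydrogenase, was at 9.95, 9.95 and 9.77, then 9.96, 9.91 and 9.95, and 9.94, 10.1 and 9.93, with overlapping groups and no call (adjusted p = 0.641 and 0.679). Mthfd1, which encodes the trifunctional cytosolic enzyme that takes up formate, fell 1.17-fold in Scr cells (-0.22 ± 0.042, adjusted p = 0.00153) and did not pass with shRunx2 (-0.038 ± 0.042, adjusted p = 0.698). In Scr cells it thus fell as its mitochondrial paralog Mthfd1l did, though by less.

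Taken within each array, the log2 difference Aldh1l2 minus Aldh1l1 changed by -2.08 during differentiation and by -1.15 with shRunx2. Mthfd2 minus Mthfd2l changed by -1.18 and -0.43, and Shmt2 minus Shmt1 by -0.92 and -0.20. The pair Mthfd1l and Mthfd1, which both fell in Scr cells, was not compared in this way. In all 6 cases the 3 arrays of one group lay below the 3 of the other, as they already did for Shmt2, Mthfd2 and Aldh1l2 alone. The share of all gene pairs that part in this way was not computed, so the count is a description. The exact two-sided permutation test gave p = 0.1 for each of the 6 cases, the smallest that 3 arrays against 3 allow. No difference could therefore pass at 0.05 in this test.

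**Figure D3:**
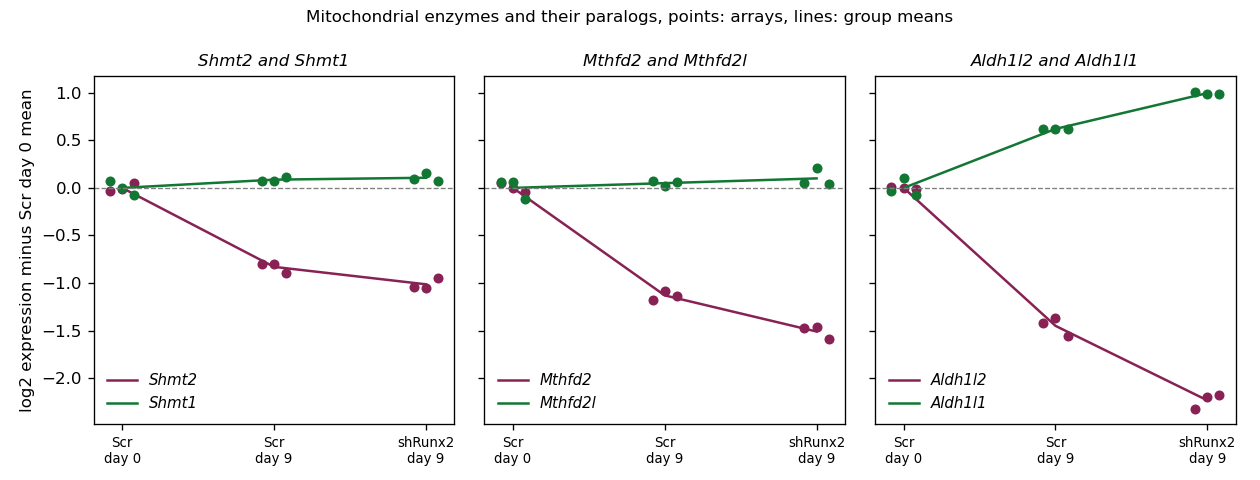
Log2 expression minus the gene's own Scr day 0 mean (vertical axis) in the 3 groups (horizontal axis) for 3 pairs of paralogs. Points are arrays and lines join group means. Shmt2, Mthfd2 and Aldh1l2 each have their lowest mean in shRunx2 day 9. Shmt1 and Mthfd2l, the latter also mitochondrial, stay near 0. Aldh1l1 is higher by 0.62 in Scr day 9 than in Scr day 0, and by 0.37 in shRunx2 day 9 than in Scr day 9. Mthfd1l and Mthfd1 are not shown.

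Other genes of one-carbon metabolism were counted from lists of known pathway members. Over all genes, 17.1% were lower and 14.5% higher during differentiation, and 4.66% lower and 2.73% higher with shRunx2. These shares stand beside every list below. Of 10 further folate enzymes measured, 2 rose and 2 fell during differentiation, counts near the shares of all genes, with a median change of -0.045. Beside Aldh1l1 the riser was Ggh, the lysosomal hydrolase that removes glutamates from folate (0.45 ± 0.087, adjusted p = 0.00166), and beside Mthfd1 the gene that fell was Fpgs, which adds them (-0.21 ± 0.048, adjusted p = 0.00539). With shRunx2, Aldh1l1 was the 1 gene of the 10 that passed. Of 6 carriers, Sfxn1, which brings serine into mitochondria, was the 1 that passed: it read 11.9, 11.92 and 11.9, then 11.59, 11.61 and 11.59, and 11.33, 11.42 and 11.44, each group below the one before. Sfxn1 fell in Scr cells (-0.31 ± 0.038, adjusted p = 7.07e-05) and was lower with shRunx2 at day 9 (-0.20 ± 0.038, adjusted p = 0.00842). The carrier count of 1 in Scr cells was near the share of all genes, and was 2 without Scr day 0 replicate 3. Slc25a32, which carries folate into mitochondria, changed by -0.16 ± 0.061 (adjusted p = 0.0676) and -0.041 ± 0.061 (adjusted p = 0.785), and Slc46a1, a proton-coupled folate carrier, by 0.10 and -0.054, with no call.

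Genes of nucleotide synthesis changed by less than 1.5-fold. The list joins purine synthesis, which takes up folate-bound carbon, with Cad, Umps and Tk1 of pyrimidine synthesis and salvage, whose reactions do not. Of 9 genes of purine and pyrimidine nucleotide synthesis, 7 fell during differentiation and none rose, with changes from -0.37 to -0.072 and a median of -0.18. Tk1, the thymidine kinase of dividing cells, fell most (-0.37 ± 0.049, adjusted p = 0.000115), followed among those with the smallest adjusted p by Pfas, a purine synthesis enzyme (-0.22), and Umps, a pyrimidine synthesis enzyme (-0.18). The count of 7 was 3 without Scr day 0 replicate 1 or Scr day 9 replicate 3, and it was 4 when Scr day 9 replicate 2 was left out. With shRunx2, Cad (-0.18 ± 0.040, adjusted p = 0.0182) and Adsl (-0.18 ± 0.048, adjusted p = 0.04) were lower, both named after their values were seen. That count of 2 was 0 without Scr day 9 replicate 1 or shRunx2 day 9 replicate 1 or 3, and 1 with any other array left out except shRunx2 day 9 replicate 2.

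Among 7 genes of glycine and serine breakdown, Srr, the serine racemase, rose in Scr cells (0.34 ± 0.044, adjusted p = 8.19e-05), as did Gcat of threonine breakdown (0.12 ± 0.039, adjusted p = 0.0402), while Gcsh, a protein of the glycine cleavage system, fell (-0.16 ± 0.055, adjusted p = 0.0459). With shRunx2, Srr was higher by 0.17 (adjusted p = 0.0406) and Gcat lower by 0.17, a log2 change of -0.17 (adjusted p = 0.0278). These were weak calls. In the shRunx2 comparison the higher count of 1 was 0 when Scr day 0 replicate 2, or else a single one of the 6 day 9 arrays, was left out, and the lower count of 1 was 0 without Scr day 9 replicate 2 or 3 or shRunx2 day 9 replicate 1 or 2. In the Scr comparison the lower count of 1 was 0 when Scr day 0 replicate 3, or else a single one of the 6 day 9 arrays, was left out, and the higher count of 2 was 1 without any Scr day 0 array, Scr day 9 replicate 2 or 3, or shRunx2 day 9 replicate 2.

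Of 10 genes of the methionine cycle and transsulfuration, Ahcyl1, an S-adenosylhomocysteine hydrolase-like protein (-0.37 ± 0.051, adjusted p = 0.000135), and Cth, which makes cysteine from cystathionine (-0.33 ± 0.052, adjusted p = 0.000431), fell in Scr cells. Sardh, the mitochondrial sarcosine dehydrogenase, which also loads a carbon onto folate, rose in Scr cells (0.44 ± 0.042, adjusted p = 8.33e-06). It was lower with shRunx2 (-0.19 ± 0.042, adjusted p = 0.0221), the 1 call of the list there, which was lost without Scr day 9 replicate 1 or 2 or shRunx2 day 9 replicate 1 or 2.

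Genes of the ATF4 pathway were examined because ATF4 is known to act on this pathway. Of 16 such genes, none of them among the 8, 11 fell and 2 rose during differentiation (median -0.33). The risers, named after their values were seen, were Atf3 (0.3 ± 0.046, adjusted p = 0.00031) and Ddit4 (0.27 ± 0.035, adjusted p = 9.28e-05). With shRunx2, 6 of the 16 were lower, 1 was higher and 9 did not pass (median -0.13). Atf4 mRNA itself read 10.58, 10.66 and 10.67 in Scr day 0, 10.28, 10.27 and 10.23 in Scr day 9 and 10.03, 10.05 and 10.07 in shRunx2 day 9. The 3 groups were apart, with falls of 1.29-fold in Scr cells (-0.37 ± 0.038, adjusted p = 1.39e-05) and 1.16-fold with shRunx2 (-0.21 ± 0.038, adjusted p = 0.00529). The part of ATF4 in the changes of the 8 genes was not tested.

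Chac1, a glutathione-degrading enzyme, read 11.83, 11.85 and 11.84, then 10.53, 10.49 and 10.33, and 9.56, 9.7 and 9.71, and fell 2.62-fold in Scr cells (adjusted p = 7.65e-09) and 1.73-fold with shRunx2 (-0.79 ± 0.057, adjusted p = 9.11e-06). Asns, asparagine synthetase, read 13.56, 13.59 and 13.53, then 12.4, 12.46 and 12.42, and 11.76, 11.84 and 11.73. It fell 2.20-fold in Scr cells (adjusted p = 1.89e-09) and 1.57-fold with shRunx2 (-0.65 ± 0.039, adjusted p = 2.69e-06). Chac1 and Asns were thus lower in both comparisons.

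Vldlr, a lipoprotein receptor, changed by -0.69 in Scr cells and by -0.41 with shRunx2 (adjusted p = 8.01e-05), and Trib3, a pseudokinase that restrains ATF4, by -0.73 and -0.26 (adjusted p = 0.0102). Atf5, a related transcription factor, fell in Scr cells (-0.65 ± 0.065, adjusted p = 1.17e-05) and stood at -0.12 with shRunx2 (adjusted p = 0.362). Cebpb (-0.39) and the stress-induced Nupr1 (-0.37) also fell in Scr cells, and with shRunx2 stood at -0.10 (adjusted p = 0.295) and -0.14 (adjusted p = 0.0504). The sole riser with shRunx2, Atf3, named after its values were seen, was higher by 0.19 (adjusted p = 0.0293), a count that was 0 when any single one of the 6 day 9 arrays was left out. Eif2ak3, the endoplasmic reticulum stress kinase upstream of ATF4, also named after its values were seen, changed by 0.045 in Scr cells (adjusted p = 0.502) and fell with shRunx2 (-0.42 ± 0.043, adjusted p = 0.000101).

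**Figure D4:**
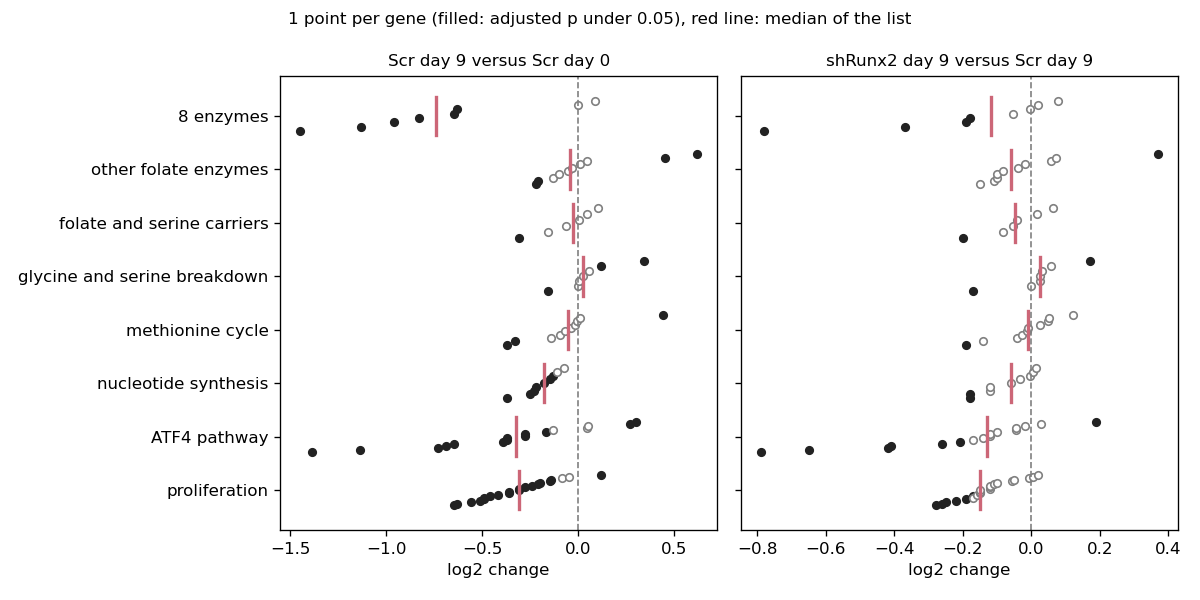
Log2 change (horizontal axis) of each measured gene in the 8 enzymes and in 7 lists (vertical axis), for Scr day 9 versus Scr day 0 (left) and shRunx2 day 9 versus Scr day 9 (right). Filled points have an adjusted p under 0.05, and the red line is the list's median, which for the 8 enzymes is -0.74 on the left and -0.12 on the right. The scales of the axes differ between the sides.

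The genes nearest in profile were sought for the 3 enzymes with the widest range of group means, as the root-mean-square difference over the 9 arrays after each gene was centred on its own mean. For Aldh1l2, whose group means spanned 2.23 log2 units, the nearest were Chac1 (0.0364), Id2 (0.0638), an inhibitor of basic helix-loop-helix factors, and Bcat1 (0.0765), the cytosolic branched-chain aminotransferase. Each of these fell in both comparisons, Id2 by -1.47 and -0.74 and Bcat1 by -1.55 and -0.76 on the log2 scale. For Mthfd2 (span 1.51) they were Pfkl (0.0744), the liver form of phosphofructokinase, Egln3 (0.079), a prolyl hydroxylase, and Slpi (0.0959), a secreted protease inhibitor. For Shmt2 (span 1.02) they were Ajuba (0.0497), Klf10 (0.0544) and Lpcat4 (0.059). None of the nearest genes was among the 8. The differences are in log2 units and describe likeness only.

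Other gene groups moved along with these comparisons. Of 21 proliferation genes, 18 fell during differentiation and 1, Cenpf (0.12, adjusted p = 0.0186), rose (median -0.31), with Aurka (-0.65) and Mcm3 (-0.63) past 1.5-fold and Mcm2 (-0.49), Mcm5 (-0.51) and Birc5 (-0.56) next by adjusted p. The 1 riser was not called without Scr day 0 replicate 1 or Scr day 9 replicate 1. With shRunx2, 6 proliferation genes were lower and none higher (median -0.15), a count that was 3 without Scr day 9 replicate 2. The mean log2 level of the list on each array was 11.41 to 11.45 in Scr day 0, 11.1 to 11.11 in Scr day 9 and 10.92 to 11.01 in shRunx2 day 9. Its part in the changes of the 8 genes was not tested.

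Interferon-stimulated genes rose with shRunx2 in 10 of 10 cases (median 1.25; mean per array 9.2 to 9.45 in Scr day 9 and 10.56 to 10.72 in shRunx2 day 9), while 8 of 10 rose and 1, Ddx58 (-0.22 ± 0.044, adjusted p = 0.00191), fell during differentiation. Their part in the changes of the 8 genes was not tested. Of 9 osteoblast genes, 6 rose during differentiation and 4 were lower with shRunx2, among them Ibsp, bone sialoprotein (3.76 and -1.12), and Alpl, alkaline phosphatase (1.39 and -0.75). In Scr day 0, Ibsp (mean 7.47) and Alpl (8.51) lay below the gene medians of those arrays. Col1a1 (13.53), Col1a2 (13.44) and Sparc (14.1) read high in Scr day 0 and passed in neither comparison. Markers of other cells changed little as lists. Of 10 macrophage and leukocyte genes, 2 rose in Scr cells, Lyz2 by 0.8 (adjusted p = 2.21e-05) and Fcer1g by 0.5, and 1, Cd14, fell (-0.32). With shRunx2, Lyz2 was higher by 0.42 and Fcer1g lower (-0.27). The mean of that list was 7.71 to 7.72 in Scr day 0, 7.79 to 7.82 in Scr day 9 and 7.81 to 7.85 in shRunx2 day 9. Of 8 endothelial genes Flt1 alone passed (0.44 and -0.22), and of 7 adipocyte genes none passed by limma in either comparison, with 1 and 0 at an unadjusted p under 0.05.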

How the data were processed

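The deposited values are log2 expression values that the authors made with RMA (background correction, quantile normalization and median polish over the probes of a probe set), 1 column for each of 9 arrays. The submitters' processing notes name both RMA and limma. RMA forces the probe values of all arrays to share a distribution, so changes are relative to all genes. The summarized values need not share one exactly. The methods mention a filter without describing it, and the genome build of the values is not given in the sources used here. The columns of the table all belonged to the 9 samples. Array medians over all probe sets were 8.416 to 8.448 in Scr day 0, 8.466 to 8.487 in Scr day 9 and 8.483 to 8.51 in shRunx2 day 9. They thus differed slightly by group, and centring arrays on them is among the alternatives. The number of arrays limits the precision.

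Of 34760 probe sets, 21640 carried 1 gene symbol in the platform annotation, 1321 several and 11799 were unnamed here. Where a gene had several probe sets (954 genes), that with the highest mean over the 9 arrays was kept, which left 19937 genes. Of these, 19855 were found by identifier in a RefSeq gene table (GRCm38.p6).

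Groups were taken from the labels. All 9 arrays entered 1 model of group means in limma 3.58.1 (R 4.3.3, lmFit and eBayes), tested on simulated data first. Benjamini-Hochberg adjustment ran over the 19937 genes, and a gene passed at an adjusted p under 0.05, with a second count at 1.5-fold. Values are log2 changes with the model's standard error (SE) and 95% interval. Paralog differences were compared by an exact permutation test (Python 3.11.15). The 8 genes, the 12 lists (138 genes, of which 123 are analysed here) and the tests were chosen with earlier results of these data known. Named genes were the 8, the genes of each pathway list past 1.5-fold in either of the first comparisons and up to 3 more with the smallest adjusted p, the nearest genes in profile, and members of lists with 5 or fewer. Alternatives were other sets of arrays, array weights, other scaling, a filter on dim genes, every probe set as a test, a trended and robust prior in eBayes, a replicate block, and leaving out each array.

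Whether replicate numbers pair cultures is not given in the labels. Over 9 same-numbered pairs of arrays, deviations from the group mean correlated at -0.114 to 0.294, 3 of them over 0.1. Between Scr day 0 and Scr day 9 the same-numbered pairs gave 0.294, 0.082 and 0.285, and the others -0.293 to 0.11. Same-numbered pairs with shRunx2 arrays gave -0.114 to 0.129. The Scr cultures may thus be paired. The main model did not pair them, and the replicate block is given among the alternatives. P-values measure the spread between these cultures of 1 cell line with 1 hairpin.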

Additional observations from a re-analysis of the deposited data

How the results depend on the processing

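Of 17 alternatives, none changed the count of 6 genes lower in Scr day 9 against Scr day 0. The count of 6 in shRunx2 day 9 against Scr day 0 was 7 with arrays centred on their medians, where Phgdh was added, and 6 under the other alternatives. The count of 4 lower with shRunx2 at day 9 was 2 with every probe set as a test (more tests), 3 with only the arrays of the groups compared, 3 with the replicate block (Shmt2 was lost in both), which changed no other count of the 8 genes, and 2 to 4 with 1 array left out. All genes called in that comparison, 1474, were 1450 with the replicate block, 2590 with array weights, 816 with every probe set, 858 without Scr day 9 replicate 2 and 919 without shRunx2 day 9 replicate 1. Another probe set for a member could not be tried, since each had 1.

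List counts that moved over 1.5 times follow, written as differentiation for the Scr comparison and knockdown for shRunx2 at day 9. With every probe set, glycine genes were 0 lower and 0 higher (knockdown) and 0 lower and 1 higher (differentiation), methionine genes 0 lower (knockdown), nucleotide genes 0 lower (knockdown) and 4 lower (differentiation), and ATF4 genes 0 higher (knockdown). Among genes above the median level, further folate enzymes were 0 higher (knockdown) and 1 higher (differentiation), carriers 2 lower, glycine genes 0 lower and methionine genes 1 lower (differentiation). With array weights, carriers were 2 lower in both, glycine genes 0 lower (differentiation) and proliferation genes 10 lower (knockdown). With arrays centred on their medians, carriers were 2 lower and glycine genes 1 higher (differentiation), glycine and ATF4 genes 0 higher (knockdown) and proliferation genes 0 higher (differentiation). With quantile normalization, carriers were 2 lower and glycine genes 1 higher (differentiation), and glycine genes 0 and nucleotide genes 1 lower (knockdown). With only the arrays compared, glycine genes were 0 lower in both and nucleotide genes 1 lower (knockdown), and with the replicate block nucleotide genes were 1 lower (knockdown).

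With 1 array left out, the knockdown counts ranged 0 to 1 for glycine genes lower, glycine genes higher, methionine genes lower and ATF4 genes higher, 0 to 2 for nucleotide genes lower and 3 to 8 for proliferation genes lower. The differentiation counts ranged 1 to 2 for carriers lower, 0 to 1 for glycine genes lower, 1 to 2 for glycine genes higher, 3 to 8 for nucleotide genes lower and 0 to 1 for proliferation genes higher.

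Changes of sign befell values near 0 that had passed no test. Shmt1 with knockdown was -0.0045 with arrays centred on medians and ranged from -0.0074 (without shRunx2 day 9 replicate 2) to 0.037 with 1 array left out. Psat1 with knockdown was 0.019 with quantile normalization, 0.005 without shRunx2 day 9 replicate 3, and ranged from -0.023 to 0.0085 (without Scr day 9 replicate 1) with 1 array left out. Phgdh in differentiation was 0.0071 with array weights, 0.032 with quantile normalization, 0.0045 without Scr day 0 replicate 2, 0.017 when Scr day 9 replicate 3 was left out, ranging from -0.04 to 0.027 (without Scr day 0 replicate 3) with 1 array left out, and against day 0 in shRunx2 cells 0.0041 with quantile normalization. In that last comparison Phgdh passed with arrays centred on medians (adjusted p = 0.0488) and Shmt1 without Scr day 0 replicate 1 (adjusted p = 0.0317). The cause of these shifts was not tested. Differences the size of those of Shmt2 and Mthfd1l in knockdown cells are near the limit that 3 arrays a group can show.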
